A study of Arabidopsis thaliana with 32 samples.

Results

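Evening and morning phases of the circadian clock were compared in Arabidopsis seedlings kept in continuous light, where no change of light marked the hour. The evening group was the 4 libraries at CT14, CT17, CT38 and CT41, and the morning group was the 4 libraries taken 12 h earlier in the cycle, at CT2, CT5, CT26 and CT29. CT is circadian time in h, as the labels give it. These 8 were chosen by their labelled hours from 32 libraries in the series, and values for them are given in that order of hours throughout. All seedlings were of the Col-0 ecotype of Arabidopsis thaliana with no transgene or mutation named. Per the labels' protocols, they grew on Murashige and Skoog plates at 24 °C for 8 days with 16 h of light and 8 h of darkness, and were then given 2 more days in continuous light, whereas the design text speaks of 1 day. There was 1 library of total RNA from seedlings per hour, so each group holds 2 clock hours on each of 2 days rather than repeats of 1 hour. No label tells whether separate cultures were used, so a p-value here reflects only how much these 8 libraries vary, which may be technical.

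The plant clock is a set of transcription factors that repress or activate each other in turn through the day. The MYB factors CCA1 and LHY accumulate around dawn and repress genes of the evening, among them the pseudo-response regulator TOC1 and the evening complex of LUX, ELF3 and ELF4. Pseudo-response regulators repress CCA1 and LHY in turn, while REVEILLE MYB factors with their LNK coactivators raise genes of the afternoon and evening. In leaves this oscillator is known to time light harvesting, starch turnover, cold responses, growth and flowering.

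The deposited unit was FPKM, fragments mapped to a transcript after division by transcript length and library size, summed here over the transcripts of a locus. The evening libraries summed to 591008 to 619290 FPKM and the morning libraries to 595381 to 622006 FPKM. Read numbers are given in no source used here, so depth is unknown. Differences below are evening minus morning means of log2(FPKM + 1), centred on each library's median, with standard errors over 4 libraries a group from a limma fit across 18504 loci with a mean of at least 1 FPKM. A locus is called where its Benjamini-Hochberg adjusted p over all loci was under 0.05. Before centring, the library medians averaged 3.54 in the evening and 3.44 in the morning on the log2 scale, a shift of 0.102 that centring removed.

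At this threshold 468 loci were higher in the evening (2.53% of those tested) and 502 were lower (2.71%), together 970 (5.24%). Of these, 77 of the higher loci and 175 of the lower ones differed by at least 2-fold. Over all 18504 loci, evening and morning groups did not overlap at 1409 with higher and 1138 with lower evening values. Among called loci this held for 467 of the 468 higher and 496 of the 502 lower, so it adds little to a call. Without centring the split was 1218 higher and 433 lower. The library at CT17 stood apart from the rest of its group. Its loading on the first principal component of the 8 libraries, which held 30.4% of the variance, was 0.005, against 0.356 to 0.525 for the other evening libraries and -0.4 to -0.192 for the morning libraries. Without it 865 of 18466 loci tested were higher and 1089 lower, among them 441 of the 468 and 484 of the 502. Counts of gene lists without CT17 are given where they moved by over 1.5 times. With opposite hours paired as blocks the counts were 103 and 146, and leaving out any other single library gave 171 to 280 higher and 209 to 363 lower. Of 84 called genes named under the fixed rule, 38 kept their call under every alternative tried, and 2 that were not tested under some kept it in the rest. The closing section names them.

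Among 16 morning clock genes, 10 were called lower in the evening and none higher (2.71% and 2.53% of all loci). Their median difference was -1.92, against 0.009 over all loci tested. The 10 include the dawn MYB genes CCA1 and LHY. CCA1 (AT2G46830, chromosome 2, 19245591 to 19248915, in TAIR10.1 coordinates) had 15.4, 3.73, 16.7 and 4.4 FPKM in the evening libraries, against 96.1, 76.9, 82.7 and 54.3 FPKM in the morning libraries. Its evening values at CT17 and CT41 were lower than those at CT14 and CT38, and no evening library reached the lowest morning one. The difference was -3.15 ± 0.45, adjusted p = 0.00814, a 8.91-fold fall on this scale. LHY, the close partner of CCA1 (AT1G01060, chromosome 1, 33365 to 37871), had 8.52, 5.93, 10.1 and 7.95 FPKM in the evening libraries, against 90.0, 55.7, 84.3 and 46.7 FPKM in the morning libraries. It was low in all 4 evening libraries alike, and its difference was -3.01 ± 0.23, adjusted p = 0.00071.

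The REVEILLE factors and their partners followed in part. RVE8, an activator of evening genes that carries the same MYB domain, had 8.2, 9.06, 7.42 and 8.43 FPKM in the evening, against 48.7, 32.6, 37.4 and 21.4 FPKM in the morning (-2.0 ± 0.22, adjusted p = 0.00263). RVE1, which links the clock to auxin, had 4.88, 8.24, 5.54 and 4.93 FPKM in the evening, against 34.7, 24.4, 21.7 and 13.8 FPKM in the morning (-1.89 ± 0.27, adjusted p = 0.00779). In both, all evening libraries lay below all morning libraries, and the morning value at CT29 was the lowest of its group. RVE4 also fell (-0.95 ± 0.14, adjusted p = 0.00847), whereas RVE5 (0.04 ± 0.13) and RVE6 (0.03 ± 0.15) had overlapping groups and adjusted p of 0.909 and 0.94. RVE2, RVE3 and RVE7 were not called either. The highest evening value of RVE2 was at CT17.

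All 4 LNK genes, which encode coactivators of REVEILLE factors, were called lower. LNK2 had 27.6, 5.54, 34 and 8.43 FPKM in the evening libraries, against 133, 137, 126 and 118 FPKM in the morning libraries (-3.14 ± 0.50, adjusted p = 0.0115). LNK3 had 13.1, 1.42, 14.5 and 7.42 FPKM in the evening, against 58.4, 47.8, 56.5 and 43.6 FPKM in the morning (-2.78 ± 0.52, adjusted p = 0.0213). CT17 was the lowest library for both, with CT41 next, and the morning libraries were close to each other. LNK4 differed by -2.57 ± 0.50 and LNK1 by -2.25 ± 0.53. LNK4 lies in an assembled gene that merges neighbouring loci, so its reads may be split among them. All 4 LNK genes overlap another annotated gene. Among the other clock genes FKF1, ELF3, LUX, BOA, RVE1, RVE3, RVE5, LKP2 and ELF4-L1 do so too, and strand handling is unknown.

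The pseudo-response regulators of the morning list were PRR9 and PRR7. PRR9, which represses CCA1 and LHY after dawn, had 3.47, 0.358, 3.47 and 1.16 FPKM in the evening, against 5.9, 11.8, 7.58 and 11.6 FPKM in the morning (-1.94 ± 0.40, adjusted p = 0.0303). Its groups did not overlap. PRR7, which acts after PRR9, had 27.4, 2.63, 27.1 and 8.26 FPKM in the evening, against 11.7, 31, 18.4 and 35.2 FPKM in the morning. High values at CT14 and CT38 and at CT5 and CT29 made the groups overlap, and the difference of -0.96 ± 0.66 was not called (adjusted p = 0.472).

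The 250 bases before the annotated start of these genes were searched on both strands for the G-box, CACGTG, a site bound by bHLH and bZIP factors. It was found in 9 of the 16 morning clock genes (56.2%), against 1416 of 18457 promoters of all loci tested (7.67%). Of these 9 genes, CCA1, LHY, LNK3, PRR9 and RVE1 were called lower in the evening, while RVE2, RVE3, RVE5 and PRR7 were not called. The window around the G-box is shown for the 2 dawn MYB genes and for LNK3, which holds a pair of them, in TAIR10.1 with 45 bases on either side, read on the strand of the gene and with the motif in capitals. The CCA1 window is chr2:19245353-19245448 on the plus strand, that of LHY is chr1:37901-37996 on the minus strand and that of LNK3 is chr3:3923329-3923424 on the plus strand.
CCA1: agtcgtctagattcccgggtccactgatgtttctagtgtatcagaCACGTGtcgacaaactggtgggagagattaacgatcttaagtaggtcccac
LHY: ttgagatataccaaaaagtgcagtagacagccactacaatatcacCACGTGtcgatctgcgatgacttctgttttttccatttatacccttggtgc
LNK3: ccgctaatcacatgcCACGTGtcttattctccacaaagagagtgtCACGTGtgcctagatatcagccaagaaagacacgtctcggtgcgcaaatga

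Of 18 evening clock genes, 11 were called higher in the evening and none lower (2.53% and 2.71% of all loci). Their median difference was 1.29. TOC1, the pseudo-response regulator that represses CCA1 and LHY at night (AT5G61380, chromosome 5, 24674963 to 24678550), had 45.9, 35.7, 39.8 and 44.5 FPKM in the evening libraries, against 10.7, 11.6, 11.2 and 13.3 FPKM in the morning libraries. The groups lay far apart and each was tight, with a difference of 1.64 ± 0.10, adjusted p = 0.000357. PRR3, a regulator of the same family, had 17.3, 10.3, 15.4 and 12.6 FPKM in the evening, against 1.74, 1.87, 1.82 and 4.0 FPKM in the morning (2.07 ± 0.22, adjusted p = 0.00252). CT29 was the highest morning library for PRR3, yet below every evening one. PRR5 had 16.4, 7.3, 14.6 and 10.7 FPKM in the evening, against 2.79, 5.34, 3.73 and 6.87 FPKM in the morning. Its groups did not overlap, but its difference of 1.12 ± 0.28 missed the threshold (adjusted p = 0.059, and 0.0212 without CT17).

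All 3 genes of the evening complex, a repressor of PRR9 and of growth genes, were called higher. ELF4 had 129.5, 149, 132 and 199 FPKM in the evening libraries, against 45.2, 36.7, 48.6 and 33.6 FPKM in the morning libraries (1.76 ± 0.17, adjusted p = 0.00153). LUX, its DNA-binding subunit, had 14.1, 17.2, 20.9 and 18.8 FPKM in the evening, against 4.64, 4.94, 4.61 and 7.23 FPKM in the morning (1.47 ± 0.15, adjusted p = 0.00235). ELF3, the scaffold of the complex, had 27.6, 27.2, 26.9 and 31 FPKM in the evening, against 13.4, 12.9, 11.2 and 13.4 FPKM in the morning (0.99 ± 0.08, adjusted p = 0.000968). None of the 3 had overlapping groups, and ELF3 varied least within them. BOA, the close homologue of LUX, also rose (1.59 ± 0.21, adjusted p = 0.00593). Of the ELF4-like genes, ELF4-L4 was called (0.62 ± 0.13), while ELF4-L1 (-0.07 ± 0.15) and ELF4-L3 (-0.06 ± 0.21) were not.

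The cold-responsive repressors COR27 and COR28, which act on clock genes such as PRR5 and TOC1, were among the largest rises. COR27 (AT5G42900, chromosome 5, 17197641 to 17199910) had 23.3, 14.1, 15.5 and 10.2 FPKM in the evening, against 0.657, 1.51, 1.34 and 1.64 FPKM in the morning (2.74 ± 0.24, adjusted p = 0.00112). COR28 had 13.1, 9.59, 10.6 and 13.1 FPKM in the evening, against 1.63, 1.22, 1.35 and 2.27 FPKM in the morning (2.17 ± 0.15, adjusted p = 0.00046). Every evening library held several times the level of any morning one for both genes. JMJD5, a JmjC-domain protein that acts with TOC1, had 28.7, 31.7, 25.2 and 76.8 FPKM in the evening, against 4.56, 3.47, 6.1 and 3.5 FPKM in the morning (2.72 ± 0.33, adjusted p = 0.00427). Its highest value was at CT41.

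Of the blue-light F-box genes and their partner GI, FKF1 alone was called. FKF1, which targets repressors of flowering for degradation, had 22.6, 7.15, 20.4 and 10.7 FPKM in the evening, against 0.745, 2.25, 1.14 and 4.14 FPKM in the morning (2.29 ± 0.42, adjusted p = 0.0196). CT14 and CT38 were high, CT17 and CT41 lower, and the groups did not overlap. GI, which binds FKF1 and ZTL, had 23.3, 3.97, 21.8 and 8.19 FPKM in the evening, against 3.3, 8.06, 4.2 and 12.2 FPKM in the morning. Its level at CT17 was below those at CT5 and CT29, so the groups overlapped and the difference of 0.71 ± 0.55 was not called (adjusted p = 0.529). ZTL, which degrades TOC1, differed by -0.26 ± 0.07 (adjusted p = 0.0656) and lies in a merged assembled gene. LKP2 differed by -0.03 ± 0.09 and CHE, a TCP repressor of CCA1, by -0.54 ± 0.18, and neither was called.

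The evening element AAAATATCT, the site through which CCA1, LHY and REVEILLE factors act, was found within 250 bases before 6 of the 18 evening clock genes (33.3%) and 1 of the 16 morning clock genes (6.25%), against 450 of 18457 promoters (2.44%). It is printed in capitals, on either strand, for TOC1, LUX and COR27 and for GRP7, a clock-controlled RNA-binding protein described next, because these hold it singly, in a pair and in 3 copies. In TAIR10.1 the windows are chr5:24674767-24674865 (plus strand) for TOC1, chr3:17182944-17183041 (plus) for LUX, chr5:17199911-17199975 (minus) for COR27 and chr2:9266558-9266633 (minus) for GRP7.
TOC1: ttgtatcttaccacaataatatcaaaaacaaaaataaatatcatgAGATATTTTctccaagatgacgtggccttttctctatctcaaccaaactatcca
LUX: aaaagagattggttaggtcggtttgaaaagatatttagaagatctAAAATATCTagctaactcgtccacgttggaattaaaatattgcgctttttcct
COR27: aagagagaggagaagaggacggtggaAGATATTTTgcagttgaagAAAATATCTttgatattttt
GRP7: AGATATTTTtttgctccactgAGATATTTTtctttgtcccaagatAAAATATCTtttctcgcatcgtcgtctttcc

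**Figure D1:**
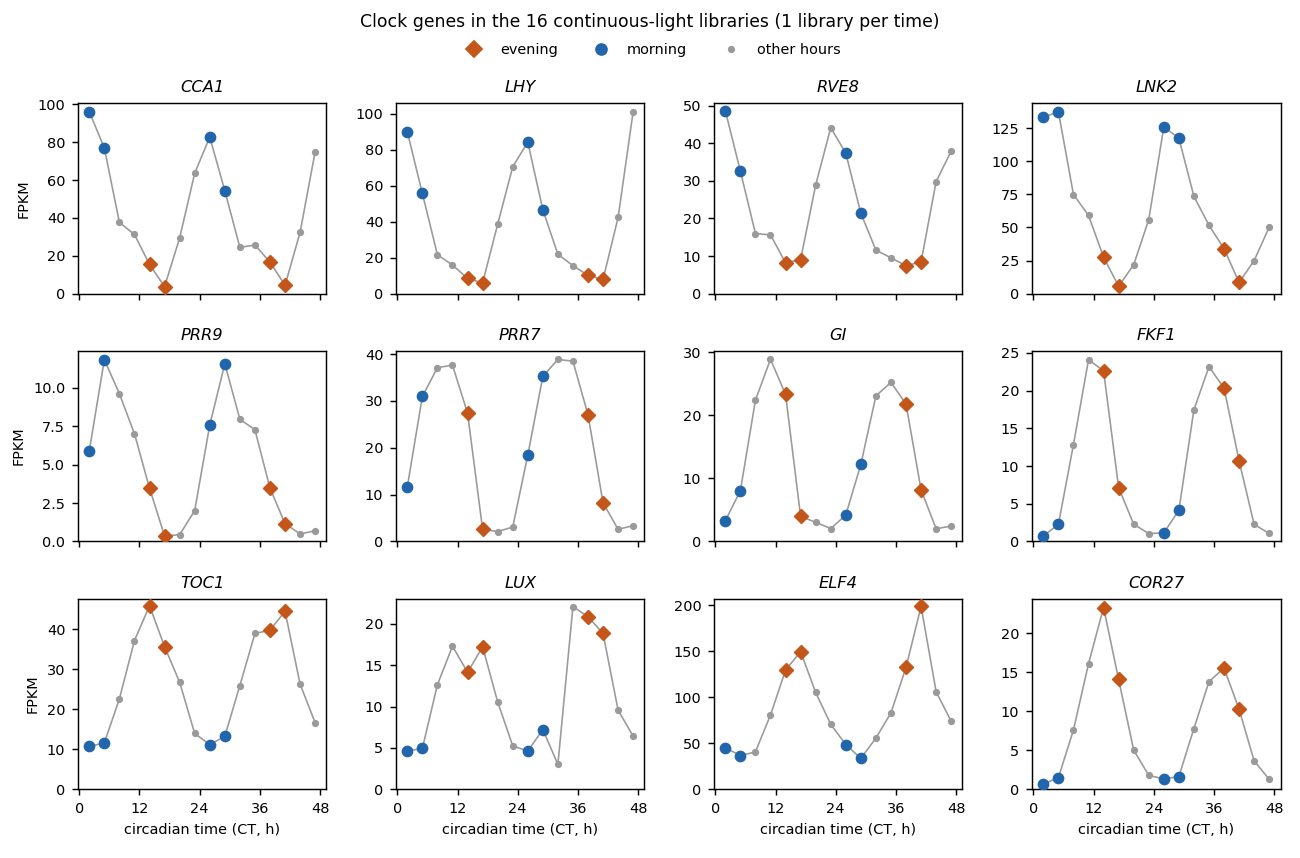
FPKM (y axis) of 12 clock genes at each of 16 hours in continuous light (x axis, circadian time in h), with evening libraries as orange diamonds, morning libraries as blue circles and the other hours in grey. CCA1, LHY, RVE8, LNK2 and PRR9 were lower in every evening library than in any morning library, FKF1, TOC1, LUX, ELF4 and COR27 were higher, and the groups of PRR7 and GI overlapped.

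Clock genes were also tested at the hours between. The night libraries at CT20, CT23, CT44 and CT47 were set against the afternoon libraries at CT8, CT11, CT32 and CT35, where 1129 of 18532 loci were called (6.09%). GI had 3.05, 2.05, 2.03 and 2.44 FPKM at night, against 22.4, 28.9, 23.1 and 25.2 FPKM in the afternoon (-2.93 ± 0.12, adjusted p = 1.88e-05). PRR7 had 2.13, 3.08, 2.59 and 3.39 FPKM at night, against 37.1, 37.6, 38.9 and 38.5 FPKM in the afternoon (-3.37 ± 0.12, adjusted p = 9.57e-06). Both were lower in every night library than in any afternoon library, while their evening and morning groups overlapped. RVE2 was higher at night (1.47 ± 0.19, adjusted p = 0.00304) and RVE3 as well (1.32 ± 0.22, adjusted p = 0.00871). Of the 16 morning clock genes 5 were higher and 2 lower at night, and of the 18 evening clock genes none was higher and 7 were lower. Of the 10 morning clock genes called between evening and morning, 4 were called here too (LHY, RVE8, RVE1 and PRR9), and of the 11 evening clock genes 4 were (COR27, COR28, PRR3 and FKF1). Among those not called were TOC1 (-0.57 ± 0.23, adjusted p = 0.221) and ELF4 (0.48 ± 0.23, adjusted p = 0.296).

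Of 13 tested genes of clock output and flowering, 2 were higher in the evening and 7 lower (2.53% and 2.71% of all loci). The other 4 were not called, and the median was -1.11. Without CT17 4 were higher and 6 lower, against 865 and 1089 of 18466 loci. COL9, a B-box repressor of flowering, had 25.3, 33.1, 27.7 and 28.2 FPKM in the evening, against 4.32, 2.66, 3.64 and 3.58 FPKM in the morning (2.60 ± 0.13, adjusted p = 0.000331). GRP7, a glycine-rich RNA-binding protein that regulates splicing of its own transcript, had 1550.2, 920.2, 2165 and 1465 FPKM in the evening, against 169, 229, 264 and 464 FPKM in the morning (2.37 ± 0.34, adjusted p = 0.00814). Neither gene had overlapping groups, and GRP7 was lowest at CT17 among evening libraries and highest at CT29 among morning libraries. COL2, a homologue of the flowering regulator CONSTANS, went the other way, with 3.88, 3.83, 4.45 and 3.24 FPKM in the evening, against 45.4, 27, 37.5 and 18.8 FPKM in the morning (-2.81 ± 0.25, adjusted p = 0.00112). COL1 also fell (-1.62 ± 0.26, adjusted p = 0.0122), as did the DOF-type repressors of flowering CDF1 (-1.20 ± 0.16, adjusted p = 0.00568), CDF2 (-1.11 ± 0.14, adjusted p = 0.00546) and CDF5 (-0.59 ± 0.14, adjusted p = 0.0484, and 0.0579 without CT17). BBX18 and BBX19, a pair of small B-box proteins, differed by -2.07 ± 0.21 and -1.49 ± 0.18.

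The 12 largest called differences in each direction added genes from outside the clock lists. AT2G33830 had the largest rise, with 889.7, 317, 739 and 359.8 FPKM in the evening libraries, against 43.1, 68.2, 23.2 and 83.8 FPKM in the morning libraries (3.29 ± 0.45, adjusted p = 0.00738). BT2, a BTB-domain scaffold protein that responds to sugar and nutrients, had 88, 175, 111 and 91.3 FPKM in the evening, against 31.4, 31.1, 14.5 and 15.9 FPKM in the morning (2.2 ± 0.32, adjusted p = 0.00849). For AT2G33830 the evening levels split by hour, with CT14 and CT38 high, whereas BT2 was highest at CT17. The other rises outside the named families were those of AT4G34950 (2.33 ± 0.24), AT5G23240 (2.32 ± 0.36) and AT1G16850 (2.19 ± 0.45).

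The largest falls beside CCA1, LHY, LNK2, LNK3 and COL2 included 3 further B-box genes. BBX16 had 3.93, 2.06, 3.14 and 1.54 FPKM in the evening, against 38.6, 35, 36.2 and 22.8 FPKM in the morning (-3.34 ± 0.24, adjusted p = 0.000523). BBX30, a B-box microprotein, had 2.17, 0.805, 1.44 and 1.54 FPKM in the evening, against 17.63, 12, 19 and 7.63 FPKM in the morning (-2.65 ± 0.28, adjusted p = 0.0024). BBX28 differed by -2.58 ± 0.46 and was under 1 FPKM at CT17 and CT41. CIPK20, a protein kinase of the CBL-interacting family, had 2.22, 0.269, 3.04 and 0.0287 FPKM in the evening, against 9.63, 18.9, 14.4 and 20.4 FPKM in the morning (-3.10 ± 0.45, adjusted p = 0.00887). It was near 0 at CT17 and CT41. In each of these 4 genes all evening libraries lay below all morning ones, which the rule that named them required. AT2G15020 differed by -2.64 ± 0.60, and 2 antenna genes complete the set.

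**Figure D2:**
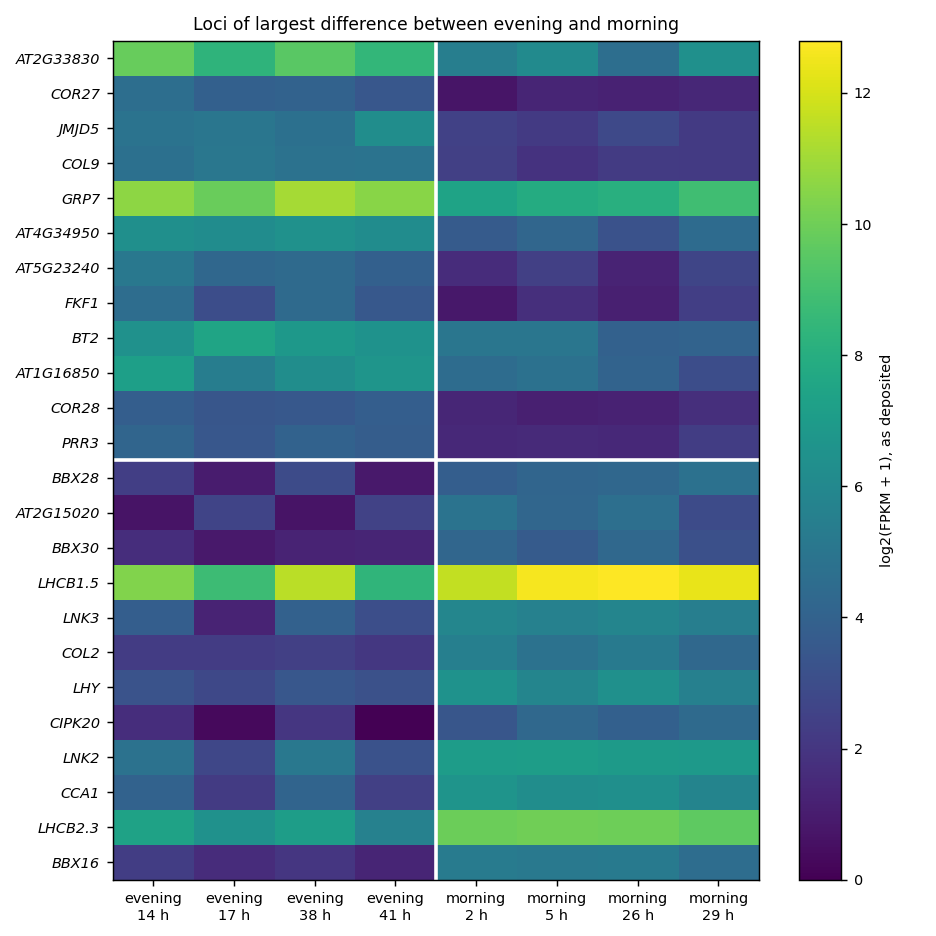
Heat map of log2(FPKM + 1) as deposited (colour) for the 12 largest called rises and the 12 largest called falls, 1 locus per line, with the 4 evening libraries in the left columns and the 4 morning libraries in the right columns. GRP7 was highest among the rises at 920 to 2165 FPKM in the evening, against 169 to 464 FPKM in the morning, and columns CT17 and CT41 are the darkest, that is the lowest, for LNK2, LNK3, BBX28 and CIPK20.

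Light-harvesting genes, which encode the chlorophyll-binding antenna of both photosystems, were lower in the evening. Of 21, 12 were called lower and none higher (2.71% and 2.53% of all loci), and 9 were not called. Their median difference was -1.6. With quantile normalization 6 were called lower and the median was -1.20. Their FPKM summed to 19054, 11355, 19453 and 8697 in the evening libraries, against 50438, 45890, 46825 and 44140.1 in the morning libraries. As a share of all FPKM that was 1.5 to 3.39% in the evening and 7.62 to 8.34% in the morning. Since FPKM are relative to the library, a fall of genes this abundant moves with a rise of the remaining values, and its part in the shift of the library medians was not tested.

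The largest called differences within the antenna were those of major LHCII genes. LHCB2.3 had 163, 88.7, 138 and 48.1 FPKM in the evening, against 955, 1024, 998 and 788 FPKM in the morning (-3.33 ± 0.34, adjusted p = 0.00193). CT41 was the lowest evening library, and the groups were far apart. LHCB1 and LHCB2 copies are nearly identical, so reads may be divided among them and the sum of copies is safer than any single one. The 5 LHCB1 copies summed to 5843, 2517, 6444 and 2008 FPKM in the evening, against 23439, 15007, 13931 and 13039 FPKM in the morning. The 3 LHCB2 copies summed to 1103, 436, 1119 and 407 FPKM in the evening, against 3101, 3603, 3453 and 3281 FPKM in the morning. Evening means were 0.257 and 0.228 of the morning means for LHCB1 and LHCB2. Single-copy calls such as LHCB1.1 (-3.58 ± 0.55, adjusted p = 0.0108, in a merged assembled gene) and LHCB1.5 (adjusted p = 0.0499, and 0.066 without CT17) are uncertain for this reason. LHCB1.2, in a merged gene, averaged 125 ± 249.7 FPKM in the evening and 1283 ± 1084 FPKM in the morning (SD, n = 4 each) and was not called (adjusted p = 0.0784).

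Of 6 minor antenna genes 3 were called lower, LHCB6, LHCB4.2 and LHCB5 (-1.26 ± 0.20, adjusted p = 0.0112), and none higher. The other members were LHCB4.1 (-1.5, adjusted p = 0.234), LHCB4.3 (0.18, adjusted p = 0.816) and LHCB7 (-0.89, adjusted p = 0.0677), and without CT17 LHCB4.1 and LHCB7 had adjusted p of 0.0354 and 0.0372. LHCB6, a monomeric antenna protein, had 974, 1093, 1033 and 688 FPKM in the evening, against 2546, 2557, 3239 and 2884 FPKM in the morning (-1.68 ± 0.19, adjusted p = 0.00269). LHCB4.2 had 1068, 712, 953 and 554 FPKM in the evening, against 2099.9, 2351, 2540.4 and 2379.8 FPKM in the morning (-1.66 ± 0.21, adjusted p = 0.00526). The lowest evening library for both was CT41, and neither had overlapping groups. The photosystem I antenna genes LHCA1, LHCA2, LHCA3 and LHCA4 differed by -2.09, -0.86, -1.6 and -2.08, with adjusted p of 0.0216, 0.0262, 0.019 and 0.0115. LHCA5 (-0.37, adjusted p = 0.276) and LHCA6 (-0.64, adjusted p = 0.0879) were not called. Without CT17 their adjusted p were 0.0259 and 0.02.

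Nuclear genes for photosystem subunits were also lower. Of 22, 12 were called lower and none higher (2.71% and 2.53% of all loci), with a median of -0.756. With quantile normalization 4 were called and the median was -0.323. PSAN, a lumenal subunit of photosystem I, had 623, 969, 749 and 679 FPKM in the evening, against 1479, 1600.0, 1545 and 1516 FPKM in the morning (-1.14 ± 0.16, adjusted p = 0.00738). PSAD1, which docks ferredoxin at photosystem I, had 1011, 1072, 1028 and 868 FPKM in the evening, against 1549.9, 1669.6, 1889 and 1838 FPKM in the morning (-0.91 ± 0.13, adjusted p = 0.00955). PSBS, the sensor of photoprotective quenching in photosystem II, had 427, 589, 423 and 473 FPKM in the evening, against 912, 835, 999 and 721 FPKM in the morning (-0.96 ± 0.16, adjusted p = 0.0134). CT17 was the highest evening library for all 3, still below every morning library. The subunits' mean sum was 26109 ± 3555 FPKM in the evening and 40982 ± 1420 FPKM in the morning (SD, n = 4 each). Antenna and subunit genes together held 5.27 to 7.96% of all FPKM in the evening and 14.4 to 15.2% in the morning.

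In chlorophyll synthesis 5 of 21 genes were called lower and none higher (2.71% and 2.53% of all loci), with a median of -0.305. Without CT17 10 were lower, against 1089 of 18466 loci. The 5 were spread over the pathway. CHLH, the large subunit of magnesium chelatase, had 179.9, 191, 213 and 180.3 FPKM in the evening, against 583, 574, 634 and 471 FPKM in the morning (-1.66 ± 0.12, adjusted p = 0.000536). CAO, which makes chlorophyll b, had 48.7, 36.4, 51.8 and 50.0 FPKM in the evening, against 131, 123, 125 and 102 FPKM in the morning (-1.45 ± 0.13, adjusted p = 0.00112). Both held the evening libraries within a narrow band below the morning ones. CRD1, a subunit of the cyclase that closes the chlorophyll ring, differed by -1.04 ± 0.16, and GUN4, an activator of magnesium chelatase, by -0.91 (adjusted p = 0.0269). HEMA1, the first committed enzyme, had 67.6, 82.4, 113 and 63.9 FPKM in the evening, against 132, 147, 144 and 140.2 FPKM in the morning (-0.92 ± 0.17, adjusted p = 0.0189). Using annotated transcripts alone, the HEMA1 difference was 1.54 and not called (adjusted p = 0.622).

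Of 20 genes of isoprenoid and carotenoid synthesis 4 were called lower and none higher (2.71% and 2.53% of all loci). Their median was -0.219. Without CT17 7 were lower, against 1089 of 18466 loci. ZEP, the zeaxanthin epoxidase of the xanthophyll cycle, had 66.4, 50.8, 66.1 and 64.2 FPKM in the evening, against 190.1, 199.8, 211 and 153 FPKM in the morning (-1.69 ± 0.13, adjusted p = 0.00071). BCH2, a beta-carotene hydroxylase, had 2.83, 2.48, 4.06 and 3.66 FPKM in the evening, against 20.5, 16.3, 21.1 and 11.5 FPKM in the morning (-2.19 ± 0.20, adjusted p = 0.00137). Neither gene had overlapping groups. DXS and HDR, the first and last enzymes of the plastid isoprenoid pathway, differed by -0.74 ± 0.09 and -1.21 ± 0.10, whereas PSY, which starts carotenoid synthesis, differed by -0.20 and was not called (adjusted p = 0.603).

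Called starch breakdown genes were all higher in the evening, while called starch synthesis genes went both ways. Among 20 tested genes of starch breakdown 5 were called higher and none lower (2.53% and 2.71% of all loci). The median was 0.41. Without CT17 1 was lower (BAM9, a beta-amylase homologue, adjusted p = 0.0292), against 1089 of 18466 loci. PWD, a kinase that phosphorylates starch granules at night, had 89.8, 61.8, 86.9 and 97.6 FPKM in the evening, against 25.8, 29, 23.3 and 34.4 FPKM in the morning (1.44 ± 0.16, adjusted p = 0.00269). ISA3, a debranching enzyme, had 42.7, 28.8, 44.2 and 46.4 FPKM in the evening, against 9.91, 13.9, 11.4 and 19.2 FPKM in the morning (1.42 ± 0.21, adjusted p = 0.00887). DPE1 (disproportionating enzyme, 1.02 ± 0.19) and SEX4 (a phosphoglucan phosphatase, 0.90 ± 0.21, adjusted p = 0.0474, and 0.0527 without CT17) were the further calls of this kind, together with BAM3. BAM3, the main beta-amylase of the night, had 75.3, 181, 87.9 and 173 FPKM in the evening, against 54.4, 30.6, 39 and 29.2 FPKM in the morning (1.56 ± 0.33, adjusted p = 0.0326). It was highest at CT17 and CT41, unlike PWD and ISA3, which were lowest at CT17 among evening hours.

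PWD and ISA3 each hold 1 evening element, at chr5:9261401-9261478 and chr4:5783825-5783908 of TAIR10.1 on the plus strand. Both are shown with it in capitals, as enzymes outside the clock whose promoters carry the letters seen in TOC1 and COR27. They were the only 2 of 20 tested starch breakdown genes that hold it, so the called DPE1, SEX4 and BAM3 do not. COL2, called lower in the evening, holds 1 as well.
PWD: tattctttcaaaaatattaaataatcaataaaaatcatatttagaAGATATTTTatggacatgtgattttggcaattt
ISA3: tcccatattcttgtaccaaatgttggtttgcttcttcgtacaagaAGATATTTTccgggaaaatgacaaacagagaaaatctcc

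Of 14 starch synthesis genes 2 were called higher and 3 lower (2.53% and 2.71% of all loci), and 9 were not called. Their median of -0.09 was 0.013 without centring. GBSS1, which makes amylose, had 18.1, 12.1, 15.1 and 20.4 FPKM in the evening, against 71.5, 50.2, 69.4 and 39.2 FPKM in the morning (-1.83 ± 0.22, adjusted p = 0.00407). SBE2.1, a branching enzyme, had 76.9, 51.7, 74.8 and 81.8 FPKM in the evening, against 24.8, 31.9, 29.1 and 33.5 FPKM in the morning (1.12 ± 0.15, adjusted p = 0.00675). Its paralogue SBE2.2 was lower in the evening instead (-0.45 ± 0.08, adjusted p = 0.0171), and SS4, a synthase that starts granules, was higher (0.58 ± 0.11, adjusted p = 0.0238). APL1, a large subunit of ADP-glucose pyrophosphorylase, fell (-0.60 ± 0.13, adjusted p = 0.036).

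In the Calvin cycle 1 of 19 tested genes was called higher and 2 lower, with a median of -0.193. Without CT17 none was higher and 7 were lower. With CT17 kept, 2.53% of all loci tested were called higher and 2.71% lower, and without it 865 and 1089 of 18466 were. RCA, rubisco activase, had 785, 1998, 845 and 1275 FPKM in the evening, against 3376, 2698, 3363 and 2228 FPKM in the morning (-1.44 ± 0.32, adjusted p = 0.0387). FBA1, a plastid aldolase, differed by -1.25 ± 0.28, adjusted p = 0.0406. CT17 was the highest evening library for both. RBCS1B, a rubisco small subunit, was called higher (2.23 ± 0.52, adjusted p = 0.0456), but it lies in a merged assembled gene, its copies are nearly identical, and without CT17 its adjusted p was 0.0513. The 4 RBCS copies together averaged 4130.2 ± 1067 FPKM in the evening and 4892 ± 953 FPKM in the morning (SD, n = 4 each), with overlapping groups.

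Phenylpropanoid and flavonoid genes had 3 of 22 called lower and none higher, with a median of -0.544, and 7 lower without CT17. The 3 were PAL genes, whose enzyme opens the pathway, and 2.71% of all loci tested were called lower (1089 of 18466 without CT17). PAL2 had 40.0, 46.1, 41.4 and 43.4 FPKM in the evening, against 72.9, 69.5, 77.9 and 63 FPKM in the morning (-0.82 ± 0.09, adjusted p = 0.00285). PAL1 and PAL3 differed by -0.52 ± 0.11 and -0.50 ± 0.11. CHS, the entry enzyme of flavonoid synthesis, averaged 111 ± 73.1 FPKM in the evening and 247 ± 42.5 FPKM in the morning (SD, n = 4 each) and was not called (adjusted p = 0.0991).

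Of 21 light-signalling genes 4 were called lower and none higher, with a median of -0.259, against 2.71% of all loci tested called lower. RUP2, a repressor of the UV-B receptor, had 3.44, 5.66, 3.96 and 6.31 FPKM in the evening, against 18.5, 11.4, 19.3 and 10.8 FPKM in the morning (-1.54 ± 0.24, adjusted p = 0.0109). SPA1, a partner of the ubiquitin ligase COP1, and the blue-light receptors CRY1 and PHOT2 differed by -0.72 ± 0.09, -0.58 ± 0.09 and -0.42 ± 0.08. Among 20 tested growth-hormone and elongation genes 1 was higher and 5 were lower (2.53% and 2.71% of all loci), with a median of -0.316. PIF5, a bHLH factor that promotes elongation, had 29.4, 9.03, 27.5 and 12.1 FPKM in the evening, against 64.5, 72.9, 62.5 and 61.7 FPKM in the morning (-1.95 ± 0.34, adjusted p = 0.0162). It was lowest at CT17 and CT41, and its groups did not overlap. PIF7, the cell-wall gene EXPA8, the auxin repressor IAA19 and the brassinosteroid enzyme BR6OX2 differed by -0.98 ± 0.12, -1.77 ± 0.33, -1.07 and -0.53 ± 0.09, and the gibberellin receptor GID1A rose by 0.40 (adjusted p = 0.0198).

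Dark- and sugar-starvation genes had 2 of 22 called higher, 1 lower and 19 not called, with a median of 0.099. Over all loci tested, 2.53% were called higher and 2.71% lower. DRM1, a dormancy-associated gene, had 359, 233, 303 and 259 FPKM in the evening, against 71.6, 75.3, 45.2 and 81.8 FPKM in the morning (1.97 ± 0.20, adjusted p = 0.0019). BT2, given above, was the second rise, and TPS8, of the trehalose phosphate synthase family, fell (-0.80 ± 0.17, adjusted p = 0.0347). Of 9 tested cold-regulated genes 2 were called higher and none lower, although all 9 differences were above 0, with a median of 1.09. Without CT17 3 were called higher (865 of 18466 loci), with quantile normalization 1, and with 12 h pairs as a block none. Of the 9, 5 lie in merged assembled genes, among them KIN1, whose 1.09 is the median. RD29A, a dehydration and cold gene, had 523, 130.4, 347 and 300.0 FPKM in the evening, against 74, 98.2, 47.8 and 77.7 FPKM in the morning (1.89 ± 0.39, adjusted p = 0.0314). COR15A, a chloroplast protectant, had 253, 89.3, 198 and 109 FPKM in the evening, against 42.7, 66.8, 31.8 and 60.0 FPKM in the morning (1.5 ± 0.35, adjusted p = 0.0485). CT14 was the highest evening library for both and CT17 the lowest, and their groups did not overlap.

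The remaining lists held few or no calls, where 5.24% of all loci tested were called in either direction. Without CT17 865 of 18466 loci were called higher and 1089 lower, and without centring 1218 and 433 of 18504. One of 18 SR splicing factors was called, RS40 (0.51 ± 0.12, adjusted p = 0.0452), and without CT17 2 were. None of 11 splicing regulators that tune the clock was called (3 higher without CT17 and 3 without centring), with U2AF65A at 0.12 ± 0.15. None of 12 genes of nitrogen and sulfur assimilation was called (1 lower without CT17), nor any of 11 jasmonate, wound and touch genes (2 lower without CT17), of 10 heat-shock genes or of 9 reference genes. At an unadjusted p under 0.05 limma gave 3 splicing regulators, 4 nitrogen and sulfur genes, 3 jasmonate genes, 1 heat-shock gene and 0 reference genes. Without centring these counts were 5, 3, 2, 1 and 3, and 9 SR factors rather than 3 passed. Over all loci tested 3847 of 18504 passed, and 4952 without centring. The median of the reference genes was then 0.127. The medians of these lists lay between -0.127 and 0.14, and those of the jasmonate and heat-shock lists changed sign without centring, to 0.061 and 0.092. EF1A, a reference gene of translation, differed by 0.21 ± 0.11 (adjusted p = 0.328).

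**Figure D3:**
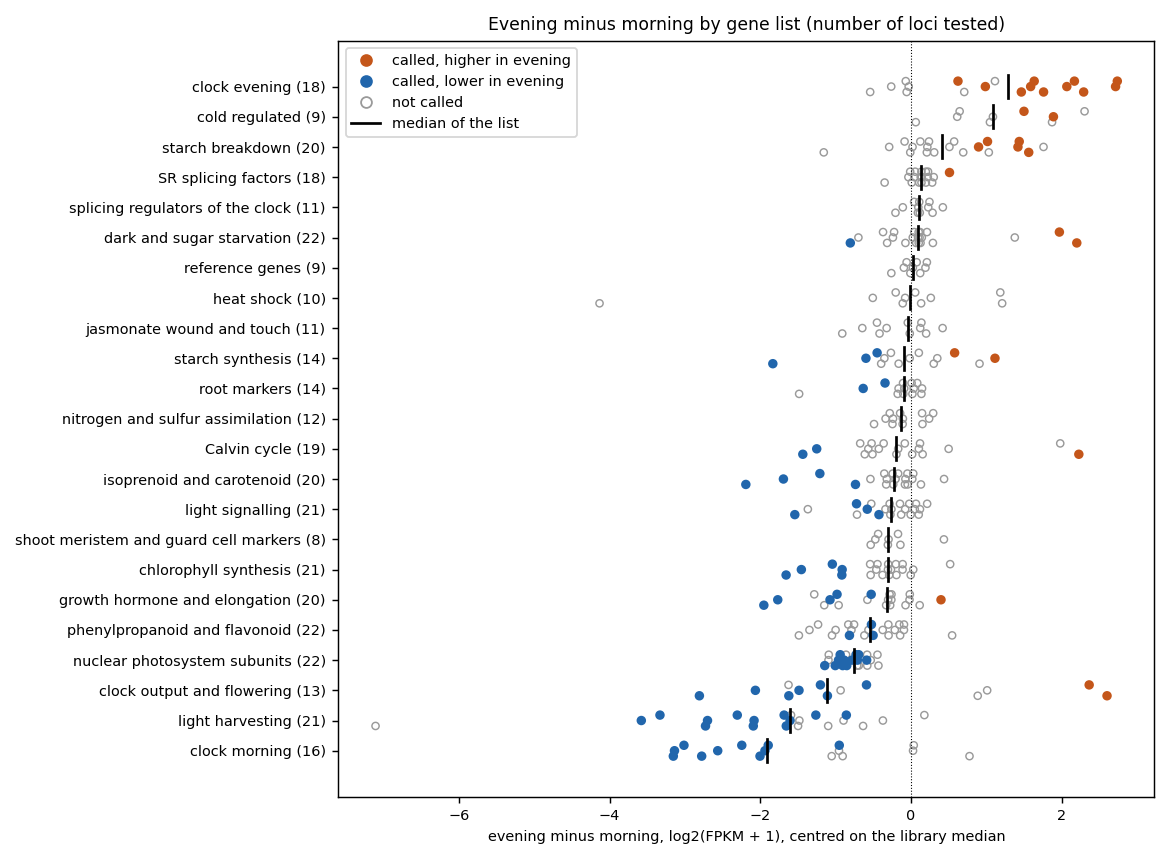
Evening minus morning log2 difference (x axis) of each tested member of 23 gene lists (lines), with members called higher in orange, called lower in blue, not called as open grey points, and the median of each list as a black bar. The lowest medians were those of clock morning genes at -1.92 and light harvesting at -1.6, and the highest were clock evening genes at 1.29 and cold-regulated genes at 1.09.

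Markers of seedling tissues were checked beside these results. Of 14 tested root markers 2 were called lower, the ion transporters HKT1 (-0.63 ± 0.11) and PHO1 (-0.34 ± 0.07), against 2.71% of all loci tested. The root list's median was -0.095 (0.007 without centring). None of 8 tested shoot meristem and guard cell markers was called by limma, with a median of -0.302. Of the 8, 4 had an unadjusted p under 0.05, against 3847 of all 18504 loci. Without CT17 2 were called lower, against 1089 of 18466 loci. All 17 root markers and all 10 shoot markers were detected in at least 1 of the 8 libraries. The root markers summed to 105 to 141 FPKM in the evening libraries and 121 to 137 FPKM in the morning libraries (exact permutation p = 0.343 for their share of all FPKM, two-sided, n = 4 each), and the shoot markers to 83.9 to 112 FPKM in the evening and 104 to 112 FPKM in the morning (exact permutation p = 0.143, where the smallest possible is 0.0286). The jasmonate, wound and touch genes, of which 2 of 15 were at 0 in all 8 libraries, summed to 307 to 589.7 FPKM in the evening and 474 to 545 FPKM in the morning (exact permutation p = 0.286). Plastid-encoded loci held 0.0156 to 0.0515% of all FPKM in the evening and 0.0118 to 0.0645% in the morning (exact permutation p = 0.857), and mitochondrial loci 0.00467 to 0.00705% in the evening and 0.00396 to 0.00641% in the morning (exact permutation p = 0.171). At 0 in all 8 libraries were 64 of 133 plastid-encoded and 65 of 152 mitochondrial loci. The part of tissue makeup and handling in the results was not tested, and in whole seedlings fewer cells of a type and less RNA per cell cannot be told apart.

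Promoter letters were counted over all called loci, in the same 250 bases and on both strands. The evening element was found in 45 of the 468 loci higher in the evening (9.62%), in 11 of the 502 lower ones (2.19%) and in 450 of all 18457 (2.44%). Among loci higher by at least 2-fold it was in 18 of 77 (23.4%), against 5 of the 175 lower by as much (2.86%). The G-box was in 37 higher loci (7.91%) and 65 lower ones (12.9%), and among those that differed by at least 2-fold in 11 of 77 (14.3%) and 30 of 175 (17.1%), against 7.67% of all. The CCA1-binding site AAAAATCT was in 7.48% of higher and 8.37% of lower loci against 6.72% of all, and the I-box GATAAG in 12.4% and 14.9% against 12.5%. No motif searched is contained in another. These shares describe letters in a window and no test was made of them.

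**Figure D4:**
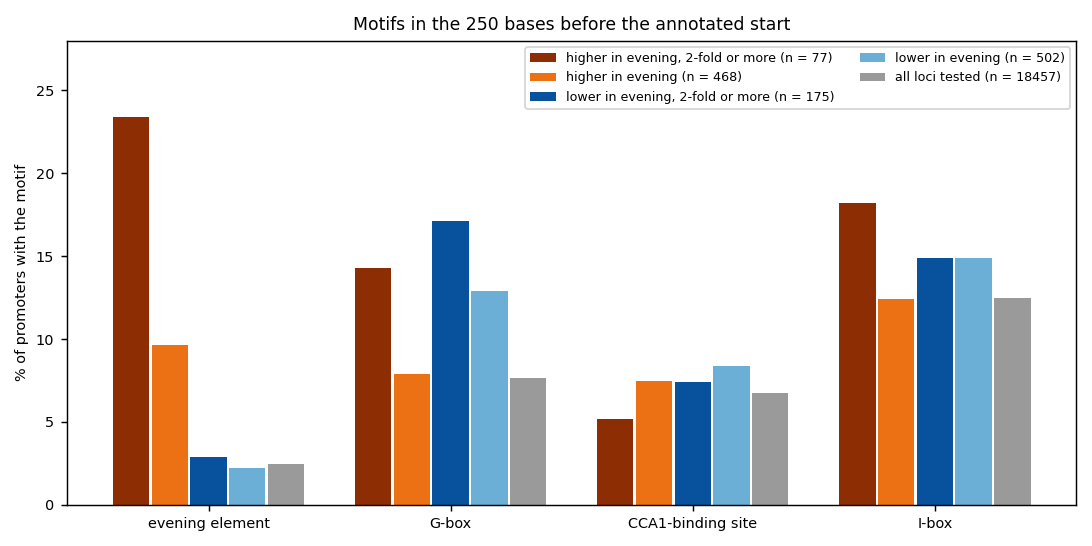
Share of promoters (y axis, percent of the 250-base windows before annotated starts) that hold each of 4 motifs, in bars for the loci higher and lower in the evening, those that differed by at least 2-fold and all loci tested. The evening element reached 23.4% of the loci at least 2-fold higher in the evening and 2.86% of those at least 2-fold lower, against 2.44% of all.

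The same hours were compared in seedlings kept in long days, whose ZT17 and ZT41 would be dark if hours were counted from lights on, which the labels do not state. There 1318 of 18780 loci were called (7.02%). Of the 468 loci higher in continuous light 171 (36.5%) were also higher in long days, which is 29.5% of the 579 higher there. Of the 502 lower loci 256 (51.0%) were also lower, which is 34.6% of the 739 lower there, and no locus was called in opposite directions. The regimes were sampled as separate seedlings and share no library. In the clock lists 10 of 16 morning genes were lower and 10 of 17 tested evening genes were higher in long days.

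Values of single clock genes were set side by side. CCA1 differed by -3.15 ± 0.45 in continuous light and -4.62 ± 0.56 in long days, LHY by -3.01 ± 0.23 and -4.76 ± 0.57, and TOC1 by 1.64 ± 0.10 and 2.33 ± 0.11. ELF4 differed by 1.76 ± 0.17 in continuous light and 4.19 ± 0.27 in long days, where its means were 118 FPKM in the evening and 4.99 FPKM in the morning, against 153 and 41 FPKM in continuous light. Its difference between regimes was -2.43 ± 0.33 (interaction term, adjusted p = 0.0161). In all, 5 of 18800 loci were called for a difference between regimes (0.0266%), and 907 higher and 913 lower had an unadjusted p under 0.05. PTAC17 and HSFA8 were among them but were listed at 0 in every long-day library of these hours, and both lie there in merged assembled genes. FIB, a plastid fibrillin, and RPS15, a ribosomal protein in a merged gene, were the remaining ones and are named after their values were seen. FIB differed by 0.05 in continuous light and -1.6 in long days.

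**Figure D5:**
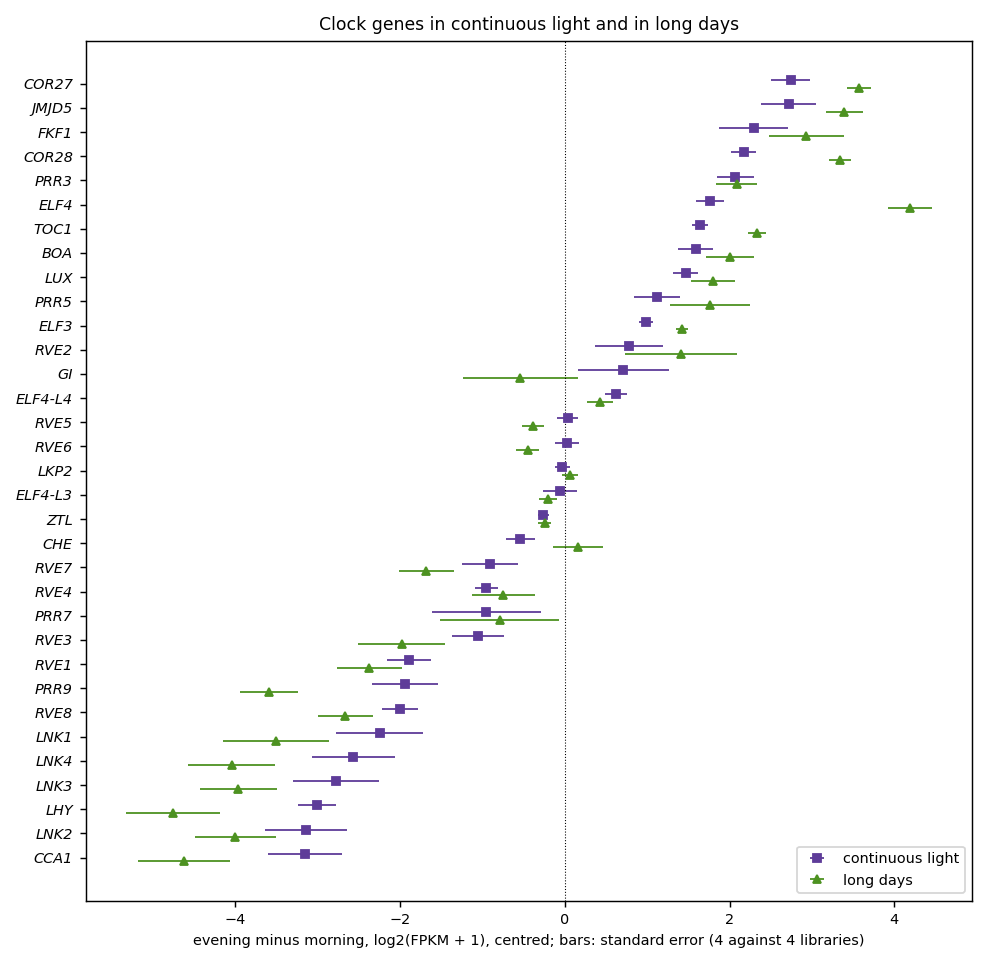
Evening minus morning log2 difference with its standard error (x axis) for 33 clock genes (lines) in continuous light (purple squares) and in long days (green triangles). ELF4 lay at 1.76 in continuous light and 4.19 in long days, and was the clock gene called for a difference between regimes.

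The evening minus morning difference was also compared between the days. It differed at 6 of 18504 loci (0.0324%), and 281 loci with a higher and 258 with a lower value on the second day had an unadjusted p under 0.05. None was a clock gene, and the called loci were listed at or near 0 in some libraries and well expressed in others. RALFL32, which encodes a RALF-like peptide, had 38.6, 43.3, 29.8 and 35.2 FPKM in the evening, against 0, 0, 36.8 and 33.6 FPKM in the morning. CCA1 differed by -3.40 on the first day and -2.91 on the second, and TOC1 by 1.67 and 1.6.

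Isoform shares were tested as the log2 ratio of an isoform to the rest of its locus, over 22727 isoforms of 8280 loci, of which 5 were called (0.022%). At HOG1, which encodes S-adenosylhomocysteine hydrolase, both listed isoforms were called, in opposite directions. AT4G13940.1 had 446, 492, 412 and 464 FPKM in the evening libraries, against 0 FPKM in all 4 morning libraries. AT4G13940.2 had 0 FPKM in all 4 evening libraries, against 418, 382, 406 and 426 FPKM in the morning libraries. Of the 8 other hours in continuous light, the first isoform was listed above 1 FPKM at 5 and the second at 1, and both were near 0 at CT20 and CT32, so the change was not a smooth daily course. HDS, an enzyme of the plastid isoprenoid pathway, had its isoform AT5G60600.2 at 86.4 ± 4.58% of the locus in the evening and 0.778 ± 1.56% in the morning (SD, n = 4 each, adjusted p = 0.0106). At the 8 other hours in continuous light this isoform was listed at 119 FPKM at CT47 and at 0 at the rest. No source used here says how reads were divided among transcripts, and its part in these jumps between 0 and high values, and in those of RALFL32, was not tested. The last 2 calls, at AT3G03270 and AT1G52220, were isoforms listed at 0 in every evening library and at a mean of 16.4% and 15.2% of their locus in the morning. Of 86 tested isoforms at 23 clock loci none was called, and 14 had an unadjusted p under 0.05. Over all 22727 isoforms, 502 with a higher and 498 with a lower evening ratio had such a p.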

How the data were processed

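Total RNA of Col-0 seedlings was purified on columns, cleared of DNA and made into Illumina libraries, per the labels' protocols. The authors deposited a table of FPKM per transcript and library for each light regime, per the file headers. The submitters' processing notes name TAIR10 as the build. The aligner, the quantifier, strand handling and read numbers are not given in the labels or files used here, so no counting interval could be given. Of 66968 transcripts in continuous light, the 53910 annotated ones and 8731 assembled at 1 locus were summed per locus. Left out were 1865 transcripts assembled across several loci, 1162 at no annotated locus and 1300 short non-coding entries. Merged assembled genes cover 2757 of 32730 loci, and 296 of the 970 called loci overlap another annotated gene (6012 of 18504 tested), so that reads of overlapping pairs may not be told apart.

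Sums were moved to log2(FPKM + 1), centred on each library's median, and tested two-sided in R 4.3.3 with limma 3.58.1 (linear fits, moderated with a mean-variance trend) for loci with a mean of at least 1 FPKM, with Benjamini-Hochberg adjustment over all loci. Folds are on this scale and understate changes of low genes. Day and regime differences were interaction terms. Isoform ratios used a pseudocount of 0.5 and isoforms with a mean share of 5 to 95%. Summed shares were compared by exact permutation over 4 against 4 libraries. Scripts were tested on simulated data. Promoters were read from the TAIR10.1 RefSeq genome, whose gene starts and ends equal those of the files for 99.95% of matched loci.

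The members, lists and named genes were chosen with earlier results of these data known. Named genes were all clock-list members, the 12 largest called differences each way with groups that do not overlap and outside merged genes, up to 4 called members of each other list (or the 2 of highest mean), and the leading loci of the day, regime and isoform tests. The named list members GUN4, SEX4, APL1, PSY, CHS, IAA19, GID1A, COL1 and the CDF and LHCA genes were picked after their values were seen. So were BAM9, LHCB1.2, LHCB4.1, LHCB4.3, LHCB5, LHCB7, FIB and RPS15. Alternatives were FPKM as deposited, quantile normalization, other pseudocounts and filters, 12 h pairs as a block, day as a covariate, a fit over all 16 libraries, annotated transcripts only, no merged loci, and leaving out each library. List counts without CT17 were chosen after seeing the data.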

Additional observations from a re-analysis of the deposited data

Results flagged for a closer look

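Among the named genes, the values of 226 groups of 4 libraries were examined for a library far from the others on the log2 scale, and 11 were found, where chance gives about 1 in 20. In the evening groups, RVE2 was high at CT17 at 146.5 FPKM and ZEP low there at 50.81 FPKM. RVE4 was low at CT41 at 37.02 FPKM and SPA1 high there at 28.12 FPKM, and HSP70-1, a cytosolic chaperone listed near 0 in the other evening libraries, had 419.9 FPKM at CT38. In the morning groups, LUX at 7.226 FPKM, PRR3 at 4.004 FPKM and HSFA8 at 2.146 FPKM were high at CT29, and PSAH2 was low there at 1389 FPKM. GAPC2 was low at CT5 at 134.5 FPKM, as was HSP70-1 at 0.05905 FPKM.

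The evening minus morning difference was unlike between continuous light and long days, by a test of the interaction, for ELF4 (-2.43), HSFA8 (1.2) and PTAC17 (1.03). HSFA8 and PTAC17 were listed at 0 in the long-day libraries. Between the days in continuous light it was unlike, by the same kind of test, for RALFL32 (-5.51), AT2G41620 (-4.32), AT4G16146 (-4.03) and AT3G52105 (5.07), each of which was listed at or near 0 in some of the 8 libraries.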

How the results depend on the processing

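The count of loci higher in the evening, 468, was 103 with 12 h pairs as a block, 1218 with FPKM as deposited, 713 in a fit over all 16 libraries and 300 with annotated transcripts only, and 171 to 865 with 1 library left out. The count lower, 502, was 146 with the pairs as a block and 331 with annotated transcripts only, and 209 to 1089 with 1 library left out. Among the fits with 1 library left out, both counts were highest without CT17. Leaving out 1 library gave 698 to 883 calls for night minus afternoon, 8 to 30 for the difference between days, 3 to 8 for the difference between regimes and 8 to 24 for isoforms, against 1129, 6, 5 and 5. Isoform calls were 2 with the pairs as a block and 8 with a pseudocount of 0.1. Filters, quantile normalization, the day covariate and leaving out merged loci kept each count they were run for within 1.5 times, as did a pseudocount of 0.1 for the counts of loci. HEMA1 reversed to 1.544 with annotated transcripts only and was not called there. The cause of these changes was not tested, and some alternatives use fewer libraries or transcripts. The hours of a pair are 12 h apart in one cycle, and no label ties them to the same culture. With the pairs as a block 6 of 16 morning and 8 of 18 evening clock genes, 4 of 21 light-harvesting genes and 1 of 22 photosystem genes were called. Of the 84 called named genes, 40 lost the call with the pairs as a block, 19 with annotated transcripts only, 11 with no filter, 6 with quantile normalization and 2 to 28 with 1 library left out. The 38 that kept it under every alternative were CCA1, LHY, RVE1, RVE4, RVE8, LNK2, TOC1, PRR3, ELF3, ELF4, LUX, COR27, COL2, COL9, GRP7, BBX16, BBX18, BBX19, BBX30, LHCB2.3, LHCB4.2, LHCB6, PSAN, CHLH, CAO, CRD1, ZEP, BCH2, DXS, HDR, PWD, ISA3, GBSS1, PAL2, SPA1, DRM1, PTAC17 and AT4G34950. PIF7 and HSFA8 kept it wherever they were tested, but neither passed a mean of at least 5 FPKM, and HSFA8 lies in a merged gene. Read depth is unknown, so the values near 0 at CT17 and CT41 carry an unknown counting error.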

Other observations

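The hours between evening and morning were tested in the same lists. At night (CT20, CT23, CT44 and CT47) against the afternoon (CT8, CT11, CT32 and CT35), 16 of 22 phenylpropanoid and flavonoid genes were higher and none lower, with a median difference of 0.876 on the log2 scale, and 10 of 19 Calvin cycle genes were higher and none lower, with a median of 0.626. Of 22 dark- and sugar-starvation genes 13 were lower at night and none higher, with a median of -0.673, and of 10 cold-regulated genes 5 were lower and none higher, with a median of -1.29. Of 13 genes of clock output and flowering 3 were higher and 5 lower, of 20 of starch breakdown 3 were higher and 7 lower, and of 21 of light signalling 7 were higher and 5 lower. Outside these and the clock lists, each list had 0 to 5 called members. Over all 18532 loci tested the median was 0.006, with 701 higher and 428 lower, together 6.09%. These comparisons share no library with the evening and morning groups, and the difference between the 2 contrasts was not tested.

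Loci called in both contrasts were mostly of opposite sign. Of the 468 loci higher in the evening than in the morning, 49 (10.5%) were lower at night than in the afternoon, which is 11.4% of the 428 lower there, and 4 were higher. Of the 502 loci lower in the evening, 80 (15.9%) were higher at night, which is 11.4% of the 701 higher there, and 11 were lower.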
